A study of Mus musculus with 3 samples.

Results

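Open chromatin was described at 40 genes of the Wnt pathway: 3 ligands, 10 Frizzled receptors, 2 coreceptors, 3 dishevelled genes, 7 genes of the destruction complex, 4 genes for beta-catenin and its DNA-binding partners, 7 secreted inhibitors and 4 feedback inhibitors of the membrane and cytoplasm. The genes were taken from a fixed list of symbols, and all 40 were found among the 21887 protein-coding genes of the annotation. For each gene, peaks were read in 2 ways. Gene-end peaks lay within 1000 bp of either annotated end of the gene, and locus peaks lay anywhere in the gene or the 10000 bp on either side. Gene positions gave no exons or introns, so a site is described here as at a gene end, in a gene body or in a flank.

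The assay was ATAC-seq, in which a transposase cuts and tags accessible DNA, on oligodendrocyte progenitor cells immunopanned from the cortices of C57BL/6 pups of postnatal day 4 to 7. The first library came from Seh1cKO cells, which carry a conditional knockout of Seh1, a nuclear pore protein encoded by Seh1l, after 1 day of triiodothyronine (T3, 60 nM). The second came from control cells, labelled wild type, after the same 1 day, and the third from control progenitors, whose title ends in DO, read here as day 0. Progenitors were grown with PDGF-AA, CNTF, bFGF and NT3, and for differentiation T3 was added and PDGF-AA, bFGF and NT3 were taken away, so day 1 differs from the progenitor stage in hormone and in growth factors. The Cre line behind the knockout and the number of pups pooled are not given in the sources used here. There was 1 library per group, so nothing below could be checked against replicates and no p-values are given. All 95% intervals cover counting error only.

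Wnt ligands bind Frizzled receptors together with the coreceptors Lrp5 or Lrp6, and dishevelled proteins carry the signal into the cell. There it disarms a destruction complex built on Axin, Apc, Gsk3 and casein kinase 1, which otherwise marks beta-catenin for degradation, and beta-catenin then joins DNA-binding proteins of the TCF/LEF group at target genes. Several of those targets, such as Axin2, Nkd1, Notum, Rnf43 and Znrf3, encode inhibitors that feed back on the pathway. In the oligodendrocyte lineage the pathway is known above all for holding progenitors back from differentiation when it stays active.

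The Seh1cKO library was the shallowest, with 10845533 fragments and 46113 peaks, against 18260883 fragments and 118441 peaks in control day 1 cells and 23403600 fragments and 108788 peaks in progenitors. Levels are therefore given as summit pileup, the number of fragments that cover the highest point of a peak, and as pileup per 1000000 fragments of the library (PPM). The lowest pileup called was 6 in Seh1cKO cells, 8 in control day 1 cells and 9 in progenitors, so an uncalled site is not shown to be closed. Seh1l itself had a gene-end peak in each library, at 4.33, 3.83 and 3.29 PPM in Seh1cKO cells, control day 1 cells and progenitors, and without exon positions this does not check the deletion. Of 10 genes that mark the oligodendrocyte lineage, 8, 9 and 9 had a gene-end peak in the same order, against 56.2%, 63.2% and 62.4% of all protein-coding genes. Of 6 markers for each other cell type, astrocyte genes had 5 called in every library, neuron genes 4, 5 and 5, microglia genes 2 in every library, and endothelial and mural genes 1, 3 and 1, and their part in the results was not tested. Gene-end calls therefore did not set lineage markers apart from those of astrocytes and neurons. Open gene ends in bulk cells do not tell more cells with an open site from more opening per cell.

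Most Wnt pathway genes had an open gene end in cells of this lineage. A gene-end peak was called for 31 of the 40 genes in Seh1cKO cells (77.5%), 36 in control day 1 cells (90%) and 34 in progenitors (85%). The share over all protein-coding genes was 56.2% in Seh1cKO cells, 63.2% in control day 1 cells and 62.4% in progenitors. In all 3 libraries together 29 of the 40 genes had one, and 54.1% of all genes had. Only Axin2 had none in any library, which was the case for 31.5% of all genes. Of the 36 genes with a gene-end peak in control day 1 cells, 30 also had one in Seh1cKO cells (83.3%, exact interval 67.2 to 93.6), close to the 87.1% over all genes. Of the 34 genes with one in progenitors, 31 also had one in control day 1 cells (91.2%, 76.3 to 98.1), against 92.4% over all genes. Of the 36 at day 1, the same 31 had one in progenitors, against 91.3% over all genes.

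**Figure D1:**
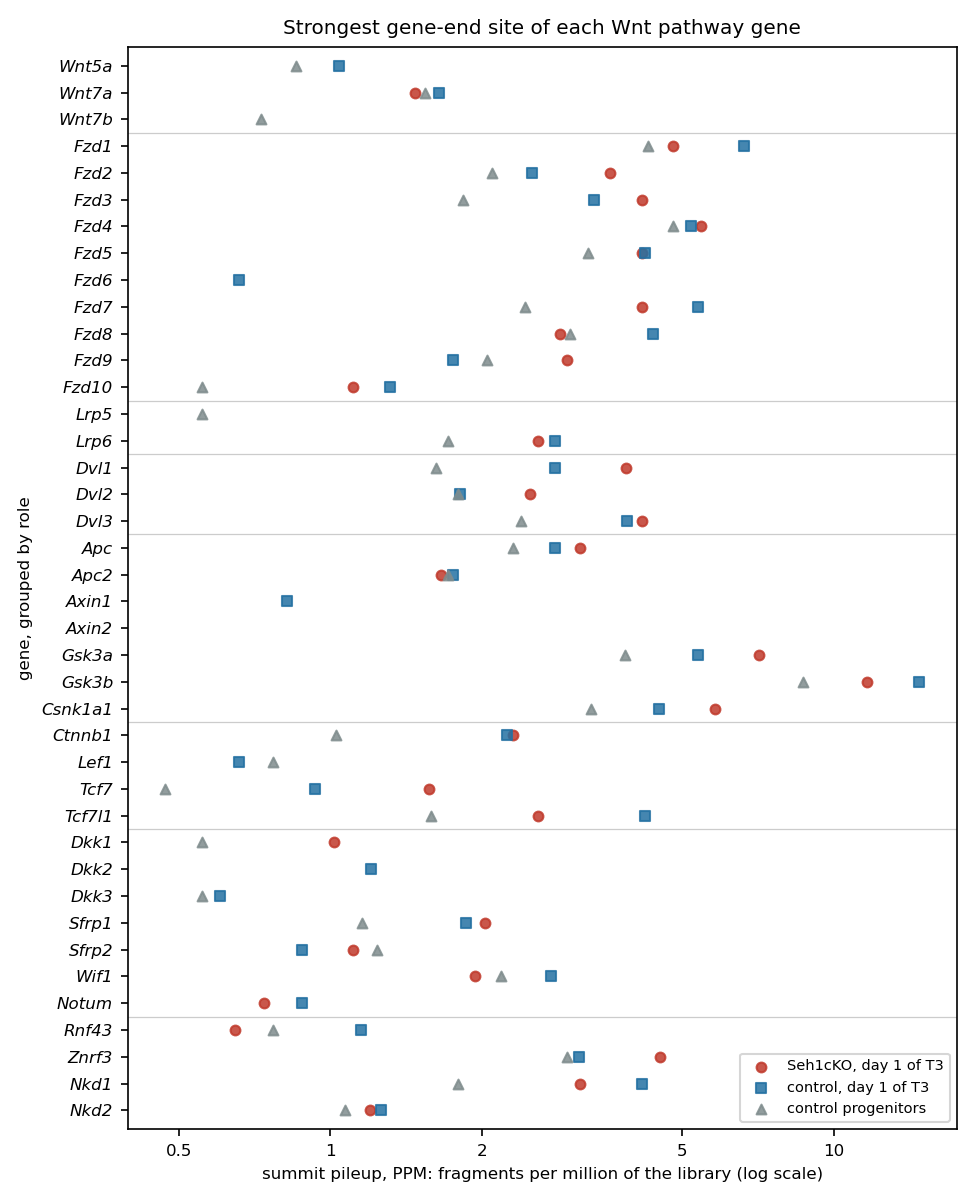
Summit pileup in PPM (log scale) at the strongest gene-end site of each of the 40 genes, grouped by role from ligands at the top to feedback inhibitors at the bottom, with 1 point per library and no point where no peak was called. Gsk3b is highest in every library, at 11.6 PPM in Seh1cKO cells, 14.8 in control day 1 cells and 8.67 in progenitors, and Axin2 has no point.

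Median gene-end pileup was 2.86 PPM over the 31 called genes in Seh1cKO cells, 2.38 over 36 in control day 1 cells and 1.71 over 35 in progenitors, where Dkk3 is counted by a peak that reaches its gene-end site from outside the window. Over all called genes the medians were 2.86, 2.52 and 1.88 PPM in the same order. The pathway's gene ends were thus called more often than those of all genes and were about as strong where called. By role, the destruction complex and the receptors had the highest medians in each library, at 5.81 and 4.15 PPM in Seh1cKO cells, 3.64 and 3.78 in control day 1 cells, and 3.29 and 2.44 in progenitors. The ligands and secreted inhibitors had the lowest medians at day 1, at 1.48 and 1.11 PPM in Seh1cKO cells and 1.34 and 1.04 in control day 1 cells. Only called genes enter these medians. For ligands that left 1 gene (Wnt7a) in Seh1cKO cells and 2 in control day 1 cells, and for secreted inhibitors 5 and 6. In progenitors the ligands, at 0.855 PPM, and the beta-catenin group, at 0.897, were the lowest.

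The 3 ligands had weak gene ends. Wnt7a was called in every library, with a summit pileup of 16 in Seh1cKO cells, 30 in control day 1 cells and 36 in progenitors, which is 1.48, 1.64 and 1.54 PPM. Wnt5a, best known for signalling that does not use beta-catenin, was not called in Seh1cKO cells and had 19 fragments in control day 1 cells and 20 in progenitors (chr14:28504736-28505582). Wnt7b, which with Wnt7a guides brain blood vessels, had a gene-end peak only in progenitors, at 17 fragments (chr15:85582602-85582745). Just beyond the Wnt7b window a second site was open in all 3 libraries, with 18 fragments in Seh1cKO cells, 26 in control day 1 cells and 36 in progenitors (chr15:85582970-85583753). The gene ends of Wnt7b therefore lay beside an open site in each library although the window counted them in progenitors alone.

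Among the 10 Frizzled receptors, 9 had a gene-end peak in every library. Fzd1 was the strongest in control day 1 cells, with 52 fragments in Seh1cKO cells, 121 in control day 1 cells and 100 in progenitors, or 4.79, 6.63 and 4.27 PPM. Fzd4, the receptor for norrin in retinal vessels, was the strongest in the other libraries, at 5.44 PPM in Seh1cKO cells, 5.20 in control day 1 cells and 4.79 in progenitors, and its site lies within 1000 bp of an end of Tmem135 too. Fzd10 was the weakest receptor called in all 3 libraries, with 12 fragments in Seh1cKO cells, 24 in control day 1 cells and 13 in progenitors. Fzd6 was the exception, called only in control day 1 cells at 12 fragments (chr15:39006112-39006382). No site of the whole Fzd6 locus was called in all 3 libraries.

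The coreceptor Lrp6 had a summit pileup of 28 in Seh1cKO cells, 51 in control day 1 cells and 40 in progenitors, while its partner Lrp5 was called only in progenitors, at 13 fragments (chr19:3686612-3686824). Beyond the gene ends, Lrp6 held a gene-body site with 31 fragments in Seh1cKO cells, 83 in control day 1 cells and 82 in progenitors (chr6:134537490-134538221). The log2 ratio at that site was -0.67 for Seh1cKO over control day 1 cells (-1.31 to -0.06). The median over all gene loci was -0.12 at sites called in both libraries. How many locus sites had an interval below 0 is not given here. The 3 dishevelled genes, whose products relay the signal from the receptors, were called in every library. Dvl3 was the strongest of them in every library, with 45 fragments in Seh1cKO cells, 71 in control day 1 cells and 56 in progenitors. All 3 were slightly higher in Seh1cKO than in control day 1 cells, by log2 ratios of 0.09 to 0.47, and each interval included 0.

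Gsk3b, a kinase that phosphorylates beta-catenin in the destruction complex, had the most open gene end of all members. Its start site reached 126 fragments in Seh1cKO cells, 270 in control day 1 cells and 203 in progenitors (chr16:38088428-38089743). A second, weaker site at the other end of the gene had 9 fragments in Seh1cKO cells, 33 in control day 1 cells and no call in progenitors (chr16:38245766-38246433). Both Gsk3b sites were lower in PPM in Seh1cKO than in control day 1 cells, by log2 ratios of -0.35 (-0.66 to -0.04) at the start and -1.12 (-2.37 to -0.03) at the other end. The related kinase Gsk3a was at 7.10 PPM in Seh1cKO cells, 5.37 in control day 1 cells and 3.85 in progenitors, and Csnk1a1, the casein kinase that primes beta-catenin, was at 5.81, 4.49 and 3.29 PPM. The scaffold gene Apc and its relative Apc2 were called in all 3 libraries, Apc with 34, 51 and 54 fragments and Apc2 with 18, 32 and 40 in Seh1cKO cells, control day 1 cells and progenitors.

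The scaffold genes Axin1 and Axin2 were open mainly inside the gene. Axin1 had a gene-end peak only in control day 1 cells, at 15 fragments (chr17:26130884-26131186). A site in its gene body was called in every library, with 57 fragments in Seh1cKO cells, 78 in control day 1 cells and 71 in progenitors (chr17:26138126-26138932). Axin2 had no peak at its annotated ends, yet the transcription start that RefSeq lists lies inside the annotated gene and under a site open in all 3 libraries, with 38 fragments in Seh1cKO cells, 67 in control day 1 cells and 56 in progenitors (chr11:108920074-108921626). In PPM these were 3.50, 3.67 and 2.39, above the median gene-end level of the called members in each library. The listed start of Axin2 was thus open in each library, although neither annotated end had a peak within 1000 bp.

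The Axin2 promoter is shown because it is the classic readout of beta-catenin activity and was covered by a peak in each library, over 300 of its 300 bases in Seh1cKO cells, 148 in control day 1 cells and 158 in progenitors. It runs from 250 bases before to 50 after the listed start (RefSeq, GRCm38.p6, chr11:108920099-108920398, plus strand). Capitals here and in the promoters below mark CTTTG, the core that TCF/LEF proteins bind, on either strand, where CAAAG is the core on the opposite strand. The Axin2 window held no such core.
Axin2: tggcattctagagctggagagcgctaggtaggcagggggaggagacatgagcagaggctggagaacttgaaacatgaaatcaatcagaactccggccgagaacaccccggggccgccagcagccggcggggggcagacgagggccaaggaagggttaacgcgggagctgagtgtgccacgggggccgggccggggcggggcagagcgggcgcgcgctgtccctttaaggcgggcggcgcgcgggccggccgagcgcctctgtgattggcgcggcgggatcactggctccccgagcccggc

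Among beta-catenin and its partners, Tcf7l1, which encodes a TCF protein that mostly represses, had both the most sites (28) and the longest locus (182675 bp). Its gene end (chr6:72788385-72789757) had 28 fragments in Seh1cKO cells, 77 in control day 1 cells and 37 in progenitors, or 2.58, 4.22 and 1.58 PPM. Control day 1 cells were thus the highest of the 3 libraries. The log2 ratio was -0.71 for Seh1cKO over control day 1 cells (-1.39 to -0.07) and 1.42 for control day 1 cells over progenitors (0.83 to 2.02), the largest of all members between those stages, and both ratios contain the same control day 1 library. The promoter, shown because the ratios of both comparisons turn on it, was under a peak over all 300 bases in every library (RefSeq, GRCm38.p6, chr6:72788996-72789295, minus strand, printed 5′ to 3′ along the gene). It held 1 CTTTG core, whose first base is 28 bases before the listed start.
Tcf7l1: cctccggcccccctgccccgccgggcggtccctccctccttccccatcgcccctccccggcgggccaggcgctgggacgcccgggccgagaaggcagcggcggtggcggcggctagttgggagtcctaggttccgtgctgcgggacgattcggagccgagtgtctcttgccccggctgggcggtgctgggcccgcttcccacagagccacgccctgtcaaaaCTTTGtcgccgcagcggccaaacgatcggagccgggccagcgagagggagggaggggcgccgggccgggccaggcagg

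Ctnnb1, which encodes beta-catenin, had 25 fragments in Seh1cKO cells, 41 in control day 1 cells and 24 in progenitors, which gave log2 ratios of 0.04 (-0.74 to 0.79) and 1.13 (0.37 to 1.92) for the comparisons by genotype and by stage. Tcf7, a TCF gene best known from T cells, had 17 fragments in Seh1cKO cells, 17 in control day 1 cells and 11 in progenitors, and at 1.57 PPM was highest in Seh1cKO cells. Its log2 ratio by genotype, 0.75, had an interval that included 0 (-0.31 to 1.81). Lef1, which encodes the LEF protein and is itself a common target, was not called at its ends in Seh1cKO cells and had 12 fragments in control day 1 cells and 18 in progenitors (chr3:131111197-131111534). None of the 8 locus peaks of Lef1 in control day 1 cells overlapped a peak of Seh1cKO cells. Over all gene loci 35.7% of control day 1 peaks did, but only 5.12% of those of 8 to 12 fragments and 25.3% of those of 13 to 19. The 2 Lef1 peaks of Seh1cKO cells, of 6 and 7 fragments, overlapped none of either control library. Over all gene loci, 67.4% of Seh1cKO peaks of 6 to 12 fragments overlapped one of control day 1 cells and 61.3% one of progenitors. All of these Lef1 sites were weak, at most 0.983 PPM in any library.

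Of the 7 secreted inhibitors, 3 were called in every library: Sfrp1, Sfrp2 and Wif1, which bind Wnt ligands outside the cell. Wif1 was the strongest in control day 1 cells and in progenitors, with 21 fragments in Seh1cKO cells, 50 in control day 1 cells and 51 in progenitors, while Sfrp1 led in Seh1cKO cells at 2.03 PPM, against 1.86 in control day 1 cells and 1.15 in progenitors. Sfrp2 had 12, 16 and 29 fragments in Seh1cKO cells, control day 1 cells and progenitors, and its log2 ratio of -0.50 between control day 1 cells and progenitors was the lowest of that comparison (-1.48 to 0.43). The other secreted inhibitors each missed a call in at least 1 library.

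Notum, an enzyme that removes the lipid Wnt ligands need, had 8 fragments in Seh1cKO cells, 16 in control day 1 cells and no call in progenitors (chr11:120660536-120661092). Dkk1, which blocks the coreceptors, had 11 fragments in Seh1cKO cells, no call in control day 1 cells and 13 in progenitors (chr19:30549483-30549847). Dkk2 was called only in control day 1 cells, at 22 fragments (chr3:132084181-132084289). The stronger open site of Dkk2 lay just inside the gene, with 24 fragments in Seh1cKO cells, 66 in control day 1 cells and 70 in progenitors. Its log2 ratio was -0.71 for Seh1cKO over control day 1 cells (-1.45 to -0.01), where the median of shared sites over all gene loci was -0.12. Of the 91 shared sites of the members, 51 were lower and 40 higher, and how many intervals lay below 0 is not given here. Dkk3, a relative that does not share the coreceptor role, was not called in Seh1cKO cells, and the gene-end site of control day 1 cells had 11 fragments, overlapping a progenitor peak of 13 that itself lay outside the window. Of the 10 genes of any role whose gene-end call differed between libraries, none had a pileup above 22 at that site. Over all genes, calls differed for those outside the 54.1% called in all 3 libraries and the 31.5% called in none. How tall such sites were over all genes is not given here.

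The Dkk1 promoter is shown as one that peaks covered in some libraries only (RefSeq, GRCm38.p6, chr19:30549447-30549746, minus strand). A peak lay over 108 of its bases in Seh1cKO cells and 202 in progenitors, and control day 1 cells had no peak there. It held 4 CTTTG cores, 2 of which abut each other on opposite strands.
Dkk1: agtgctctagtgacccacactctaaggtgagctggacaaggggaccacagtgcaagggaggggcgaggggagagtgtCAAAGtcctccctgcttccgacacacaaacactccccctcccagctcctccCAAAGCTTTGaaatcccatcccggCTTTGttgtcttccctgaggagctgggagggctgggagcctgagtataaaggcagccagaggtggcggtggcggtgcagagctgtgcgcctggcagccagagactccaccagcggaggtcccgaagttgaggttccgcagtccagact

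The 4 feedback inhibitors of the membrane and cytoplasm were called in every library. Znrf3, a ubiquitin ligase that removes Frizzled receptors, had 49 fragments in Seh1cKO cells, 57 in control day 1 cells and 69 in progenitors, and was the strongest of the 4 except in control day 1 cells, where Nkd1 was. Its relative Rnf43 was the weakest, with 7, 21 and 18 fragments, or 0.645, 1.15 and 0.769 PPM, in Seh1cKO cells, control day 1 cells and progenitors. That gave the lowest log2 ratio of all members for Seh1cKO over control day 1 cells, -0.83, with a wide interval (-2.31 to 0.45). Nkd1 and Nkd2 encode proteins that bind dishevelled and damp the signal. Nkd1 had 34 fragments in Seh1cKO cells, 76 in control day 1 cells and 42 in progenitors (chr8:88520919-88522301), and Nkd2 had 13, 23 and 25.

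The Rnf43 promoter is shown as another such case: the progenitor peak covered 47 of its bases, and the peaks of Seh1cKO and control day 1 cells ended before it (RefSeq, GRCm38.p6, chr11:87662837-87663136, plus strand). It held no CTTTG core.
Rnf43: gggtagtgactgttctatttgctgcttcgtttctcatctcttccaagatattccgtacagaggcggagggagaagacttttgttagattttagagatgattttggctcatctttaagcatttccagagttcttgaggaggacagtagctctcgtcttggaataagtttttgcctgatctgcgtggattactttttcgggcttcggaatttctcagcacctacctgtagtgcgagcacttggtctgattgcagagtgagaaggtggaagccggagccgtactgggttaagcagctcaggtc

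RefSeq promoters were found for 25 of the 40 genes, in 34 windows of 300 bases, since some genes have several listed starts. The full site CTTTGAT, searched on both strands, was in 0 of these 34 windows, and 3.22% of all 21263 promoter windows held it. The shorter core CTTTG was in 17 of the 34 (50.0%), near the 51.2% of all windows. A peak touched 22 of the 34 windows in Seh1cKO cells, 23 in control day 1 cells and 23 in progenitors, against 51.4%, 54.9% and 54.0% of all windows in the same order. A match of letters is not a bound site, and a window without a match says nothing about binding elsewhere.

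Between Seh1cKO and control day 1 cells, gene-end levels of the pathway differed little at genes called in both libraries. Over the 30 genes with a site called in both, the median log2 ratio of PPM was 0.01 (interval of the median -0.25 to 0.31), with 15 genes higher and 15 lower. The median over all 11914 genes called in both was 0.00. No member was past 2-fold in either direction, while 1.56% of all genes were at least 2-fold higher and 1.87% at least 2-fold lower. The highest ratios were 0.75 for both Tcf7 and Fzd9, and the lowest were -0.83 for Rnf43, -0.71 for Tcf7l1 and -0.62 for Fzd8. The counting interval lay below 0 for 3 of the 30 genes, Gsk3b, Tcf7l1 and Fzd8, and above 0 for none. Both counts turn on bounds next to 0: the Fzd8 interval was -1.26 to -0.001, and that of Fzd9 was -0.002 to 1.51. Over all genes the interval lay below 0 in 5.55% and above 0 in 5.66%. Fzd8, a receptor gene without introns, had 31 fragments in Seh1cKO cells, 80 in control day 1 cells and 70 in progenitors.

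**Figure D2:**
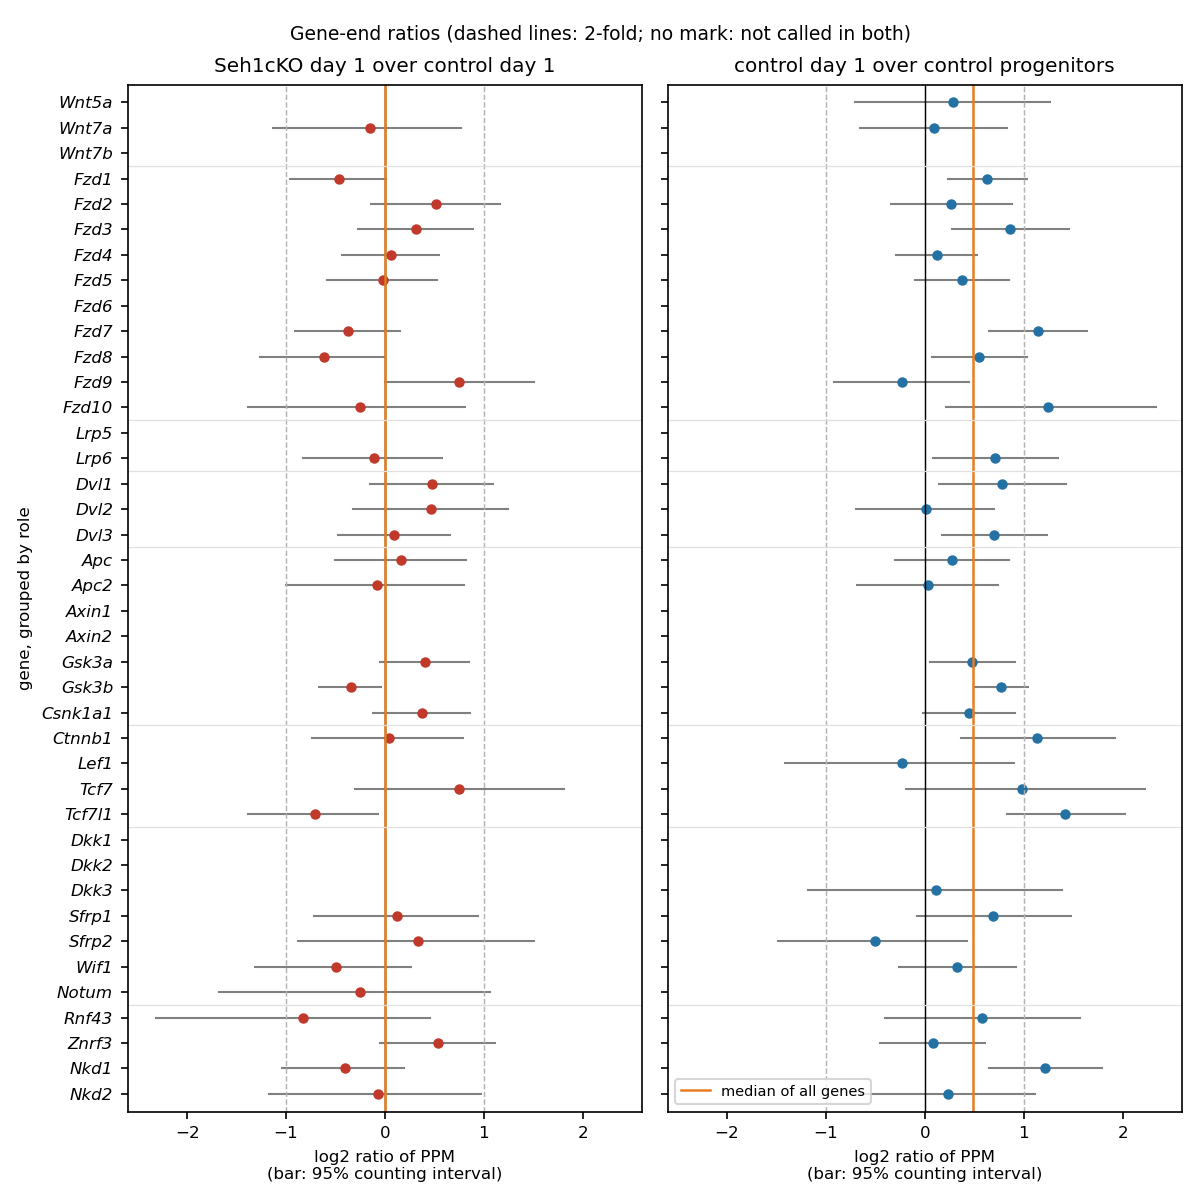
Log2 ratio of gene-end PPM for each gene, for Seh1cKO over control day 1 cells (left) and control day 1 cells over control progenitors (right), with 95% counting intervals as bars, the median of all genes in orange and 2-fold as dashed lines. On the left the genes called in both libraries scatter around 0 and none of them is past 2-fold. On the right 29 of 32 genes lie above 0 and 5 lie past 2-fold, but the median of all genes is shifted too (orange line at 0.48), and none is past 2-fold once that median is taken off.

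Between control day 1 cells and progenitors, nearly all members were higher in PPM at day 1, by about as much as genes at large. The median log2 ratio over the 32 genes with a site called in both was 0.46 (0.24 to 0.71), and the median over all 12277 genes was 0.48, a ratio of 1.40. The ratio was above 0 for 29 genes and below 0 for Lef1, Fzd9 and Sfrp2. At least 2-fold higher were Tcf7l1 (1.42), Fzd10 (1.24), Nkd1 (1.21), Fzd7 (1.14) and Ctnnb1 (1.13), 5 of 32 where 9.66% of all genes were, and none was 2-fold lower, against 0.204% of all genes. Relative to the median of all genes, 15 members were higher and 17 lower, and none passed 2-fold in either direction, against 1.03% of all genes higher and 1.88% lower. Genes without a site called in both libraries have no ratio and are left out of these counts.

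Relative to that median, the interval of 4 genes lay above it and that of 2 below it. The 4 were Tcf7l1, Nkd1, Fzd7 and Gsk3b, and the 2 were Fzd9 and Sfrp2. Over all genes 7.52% had an interval above the median and 6.74% below it. Fzd7, a receptor of many stem and progenitor cells, had 45 fragments in Seh1cKO cells, 98 in control day 1 cells and 57 in progenitors. Fzd9 had 32 fragments in both day 1 libraries and 48 in progenitors, or 2.95 PPM in Seh1cKO cells, 1.75 in control day 1 cells and 2.05 in progenitors. The genotype and stage comparisons share the control day 1 library, so a gene that is highest in it, as Tcf7l1, Nkd1 and Fzd7 are, moves in opposite directions in them.

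Across whole loci, the 40 genes held 356 merged sites, 61 at gene ends, 221 in gene bodies and 74 in flanks, where overlapping peaks of different libraries are counted as 1 site. In all 3 libraries 83 of the 356 were called (23.3%), against 21.7% of the 115531 sites over all gene loci. Control day 1 cells alone called 116 (32.6%, against 35.2% over all loci), progenitors alone 107 (30.1%, against 29.6%) and Seh1cKO cells alone 10 (2.81%, against 2.89%). By place, 32 of 61 gene-end sites, 27 of 221 gene-body sites and 24 of 74 flank sites were called in all 3 libraries, against 57.4% of gene-end sites, 15.0% of gene-body sites and 24.2% of flank sites over all genes. Calls depend on the height of a peak and on the depth of a library. Lef1, Fzd6, Dkk1 and Wnt5a were the members with no site called in all 3 libraries. The share of all gene loci without such a site is not given here. Tcf7l1 had the most sites, 28, of which 7 were called in all 3 libraries. Its locus of 182675 bp is among the longest, beside Znrf3 (188519 bp, 22 sites) and Gsk3b (177084 bp, 14 sites), and site counts were not scaled to length.

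**Figure D3:**
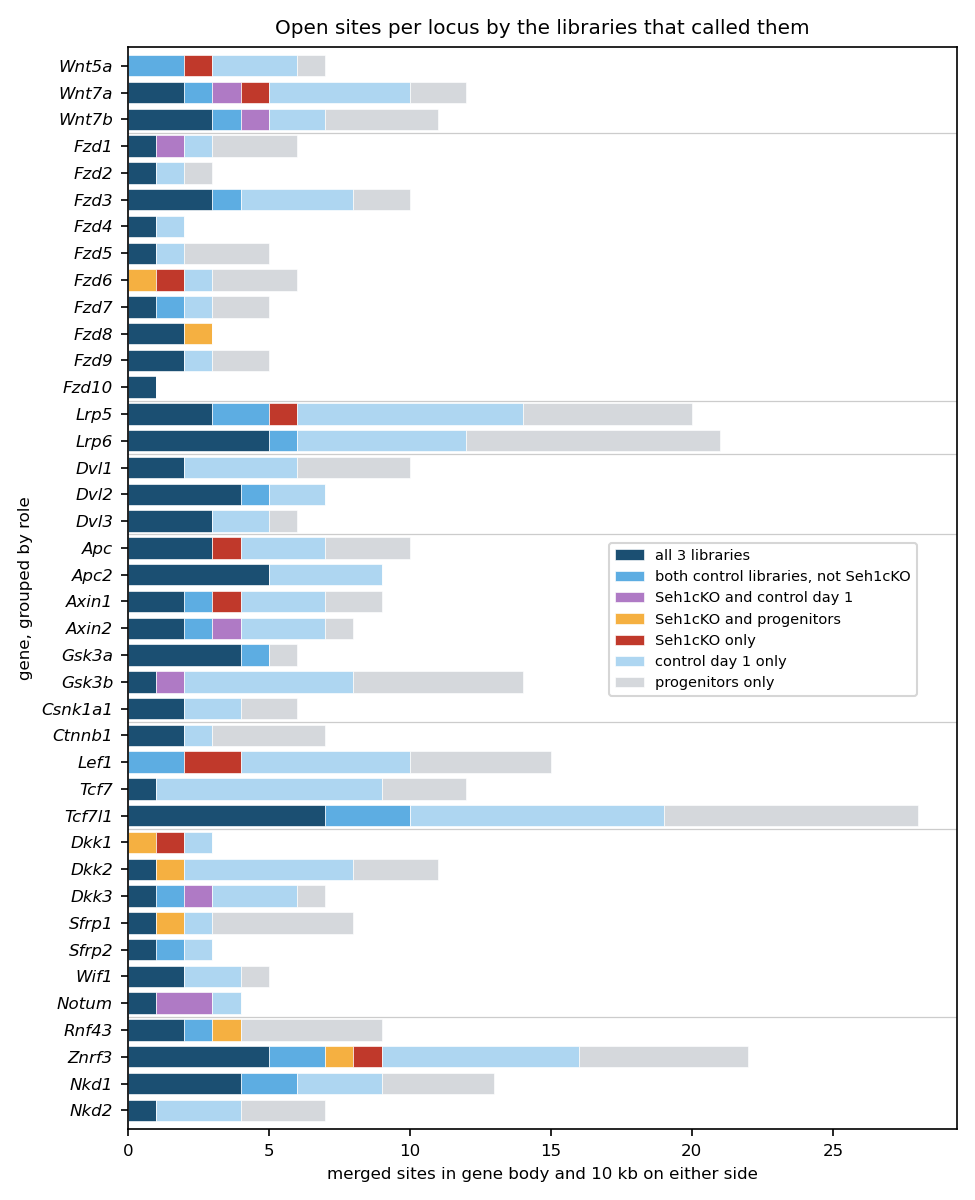
Number of merged sites in each gene with 10 kb on either side, split by the libraries that called them. Dark blue marks sites of all 3 libraries, light blue and grey mark sites of control day 1 cells alone and progenitors alone, and Tcf7l1 has the longest bar, with 28 sites. Lef1, Fzd6, Dkk1 and Wnt5a have no dark blue.

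Of the 242 locus peaks of control day 1 cells, 93 overlapped a peak of Seh1cKO cells (38.4%, 32.3 to 44.9), against 35.7% over all gene loci. Of the 232 progenitor peaks, 117 overlapped one of control day 1 cells (50.4%, 43.8 to 57.0), against 49.8%, and of the 242 control day 1 peaks 116 overlapped one of progenitors (47.9%, against 45.0%). The 113 Seh1cKO peaks were mostly shared, 95 with control day 1 cells (84.1%, against 84.9%) and 94 with progenitors (83.2%, against 82.1%). Tall peaks were shared more often than low ones. Of control day 1 peaks of 8 to 12 fragments, 4 of 85 were also called in Seh1cKO cells, and of those of at least 50 fragments 39 of 41 were. The 2 tall peaks without a Seh1cKO call lay in the Tcf7l1 gene body, with 50 fragments in control day 1 cells and 23 in progenitors (chr6:72727854-72728216), and in the Gsk3a flank, with 51 in each control library (chr7:25239255-25239483).

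**Figure D4:**
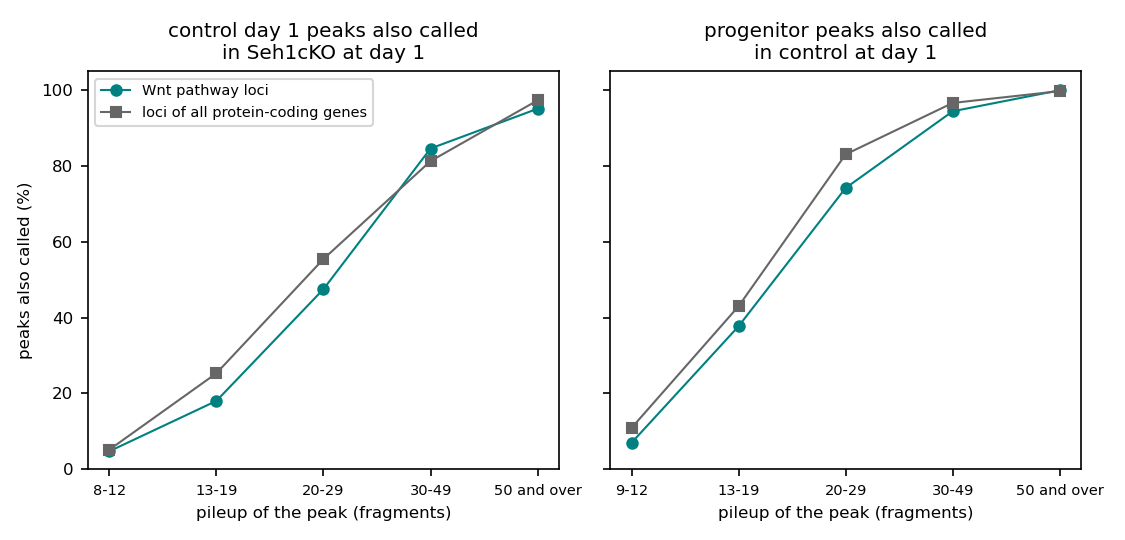
Share of locus peaks that were also called in a second library, by pileup of the peak, for Wnt pathway loci (teal) and the loci of all protein-coding genes (grey). Among control day 1 peaks the share also called in Seh1cKO cells runs up from 4.71% to 95.1% at Wnt pathway loci and from 5.12% to 97.3% at all loci. In between it is 18% against 25.3% at 13 to 19 fragments and 47.5% against 55.5% at 20 to 29. At 30 to 49 fragments the Wnt pathway share is the higher one, 84.6% against 81.3%. Among progenitor peaks of 20 to 29 fragments (right), 74.2% were also called in control day 1 cells at Wnt pathway loci (23 of 31 peaks) and 83.1% at all loci. The reverse direction is not drawn. In it, control day 1 peaks of 20 to 29 fragments were also called in progenitors in 55% of cases at Wnt pathway loci (22 of 40 peaks) and 72.8% at all loci. In the lowest and highest pileup classes the Wnt pathway share was the higher one, 14.1% against 10.2% and 100% against 99.1%.

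Of the 91 sites called in both Seh1cKO and control day 1 cells, 5 were at least 2-fold lower in Seh1cKO cells and 1 was at least 2-fold higher. Sites without a Seh1cKO call, such as the tall Tcf7l1 and Gsk3a sites named above, have no ratio and are not in these counts. Over all gene loci 9.38% of sites called in both were 2-fold lower and 1.54% 2-fold higher. The lower ones were in the gene body of Tcf7l1 and of Nkd1, at the far end of Gsk3b, and in the flanks of Fzd1 and Dkk3. The Tcf7l1 site (chr6:72768621-72769316) had 26 fragments in Seh1cKO cells, 92 in control day 1 cells and 77 in progenitors, a log2 ratio of -1.07 (-1.76 to -0.43). The Nkd1 site (chr8:88560076-88560488) had 9, 33 and 14 fragments in Seh1cKO cells, control day 1 cells and progenitors, a log2 ratio of -1.12 (-2.37 to -0.03). In the Fzd1 flank (chr5:4766882-4767251) there were 8 fragments in Seh1cKO cells, 30 in control day 1 cells and no call in progenitors, and in the Dkk3 flank, at an end of Usp47, there were 9, 32 and 28. The Fzd1 and Dkk3 intervals reached 0.

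The higher site lay in the Rnf43 flank, at an end of the neighbouring gene Supt4a (chr11:87736850-87737694), with 46 fragments in Seh1cKO cells, 26 in control day 1 cells and 31 in progenitors. Its log2 ratio was 1.57 (0.85 to 2.33), opposite in sign to the -0.83 of Rnf43's own gene end. By place, the 53 sites at an end of any gene had a median log2 ratio of 0.05, and the 38 away from every gene end had -0.13, with 26 lower and 12 higher. Over all loci the medians were -0.01 at gene ends and -0.25 away from them, with 65.5% of the sites away from them lower.

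Of the 108 sites called in both control day 1 cells and progenitors, 10 were at least 2-fold higher at day 1 and 0 were 2-fold lower, against 13.9% and 0.616% over all gene loci. The 5 that were not at gene ends were in Tcf7l1, Nkd1, Axin2 and Apc2. Nkd1 held 2 of them, the site already named, at a log2 ratio of 1.60 (0.65 to 2.61), and one with no call in Seh1cKO cells, 33 fragments in control day 1 cells and 19 in progenitors (chr8:88569362-88569774). The Tcf7l1 site was the tall one without a Seh1cKO call, at 1.48 (0.74 to 2.26). Axin2 had 28 fragments in control day 1 cells, 17 in progenitors and no call in Seh1cKO cells (chr11:108927112-108927344), and Apc2 had 27 in Seh1cKO cells, 63 in control day 1 cells and 39 in progenitors (chr10:80298867-80299515). That Apc2 site covers a listed start inside the gene. Its log2 ratio by stage was 1.05 (0.45 to 1.66), against 0.04 (-0.68 to 0.74) at the gene-end site of Apc2. Relative to the median of all genes, 1 of the 10 was still 2-fold higher, and 3 other sites were 2-fold lower.

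**Figure D5:**
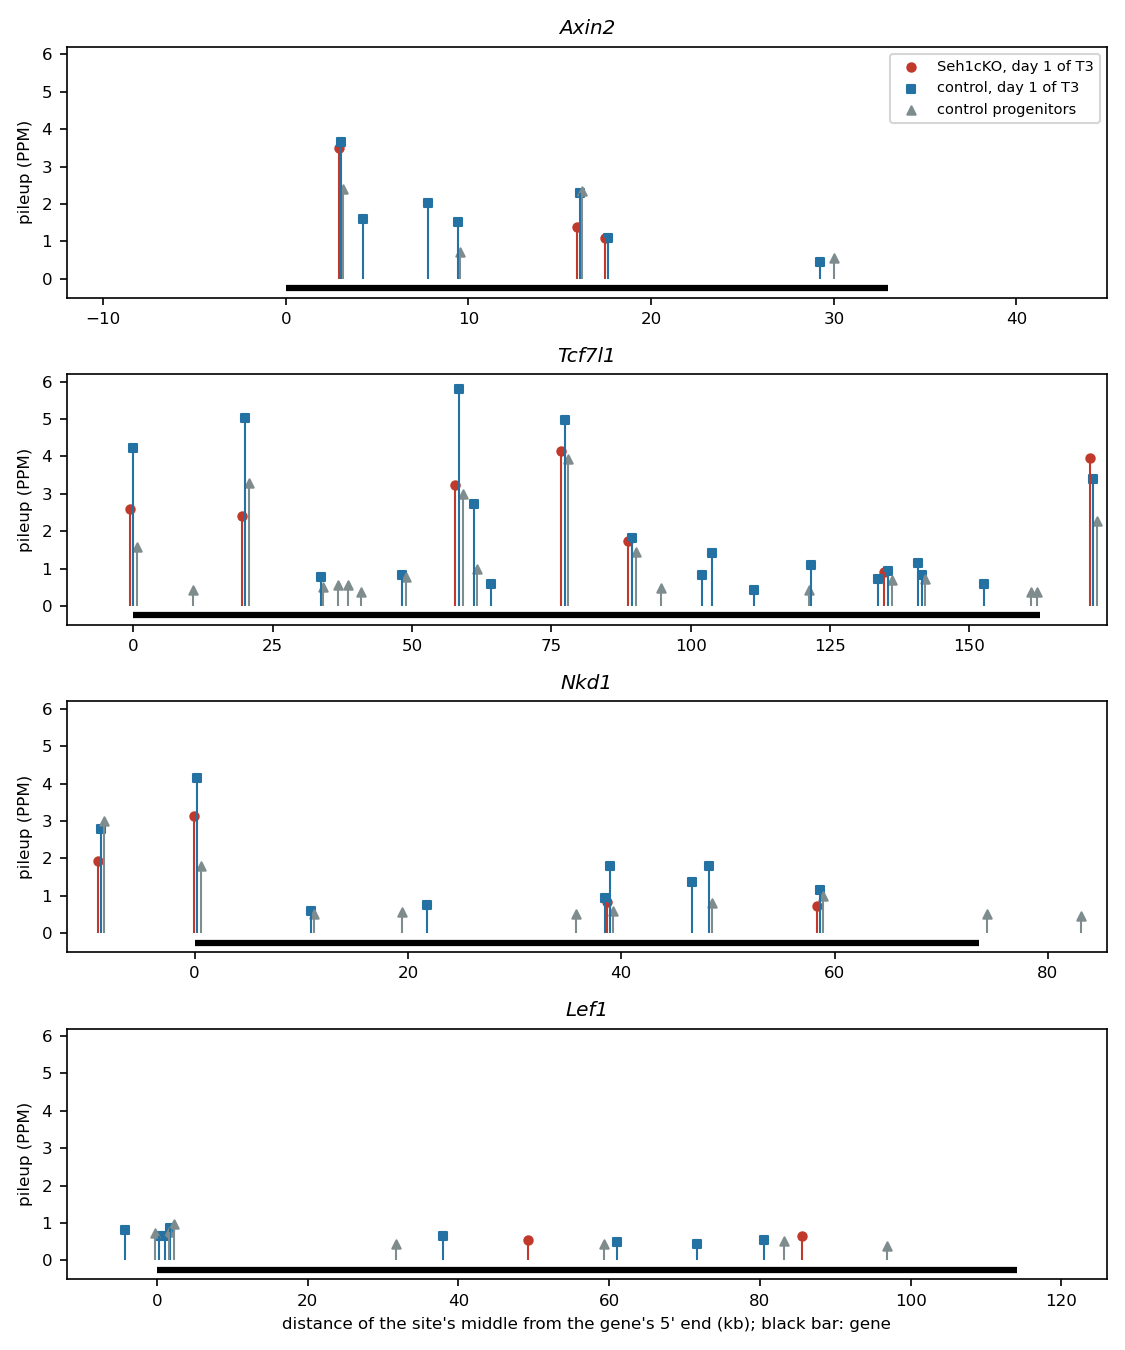
Sites along Axin2, Tcf7l1, Nkd1 and Lef1, placed by distance in kb from the 5′ end of the annotated gene (black bar), with PPM in each library on the y axis and no mark where no peak was called. Tcf7l1 has several sites above 2 PPM in every library, Axin2 has a group of sites called in control day 1 cells alone beside the site at its listed start, and every Lef1 site is below 1 PPM.

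The plot of sites along 4 genes shows how the target genes Axin2, Nkd1 and Lef1 and the repressor gene Tcf7l1 differ. In the gene body of Axin2, control day 1 cells called 7 peaks, progenitors 5 and Seh1cKO cells 3. All 3 Axin2 peaks of Seh1cKO cells were also in control day 1 cells. The strongest site called in control day 1 cells alone over all 40 loci was there, with 37 fragments (chr11:108925335-108925855), followed at this locus by one of 29 (chr11:108921982-108922102). A further Axin2 site had 15 fragments in Seh1cKO cells, 42 in control day 1 cells and 55 in progenitors (chr11:108933606-108934211), a log2 ratio of -0.73 (-1.69 to 0.15) by genotype.

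In Tcf7l1, 6 of the 7 sites called in all 3 libraries were lower in PPM in Seh1cKO than in control day 1 cells, against 60.0% of the 25082 such sites over all gene loci, and Tcf7l1 was picked for this count after its values were seen. The tallest, in the gene body (chr6:72730293-72731024), had 35 fragments in Seh1cKO cells, 106 in control day 1 cells and 70 in progenitors, a log2 ratio of -0.85 (-1.44 to -0.28). Another (chr6:72711221-72712190) had 45, 91 and 92 fragments in Seh1cKO cells, control day 1 cells and progenitors, at -0.26 (-0.81 to 0.27). The 7th was in the flank at an end of Tgoln1 and was higher in Seh1cKO cells by 0.22 (-0.37 to 0.81). The strongest progenitor site with no call at day 1 over all 40 loci was in the Wnt7b gene body, with 38 fragments (chr15:85576620-85576975).

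Of the 5 strongest sites outside the gene-end windows, 4 lay in flanks, at gene ends of neighbours. The site in the Lrp5 flank, at an end of Ppp6r3, had 97 fragments in Seh1cKO cells, 176 in control day 1 cells and 131 in progenitors. Sites in the flanks of Dvl2 (at ends of Gabarap and Phf23), Gsk3a (at Dedd2) and Dvl3 (at Ap2m1) had 68, 72 and 67 fragments in Seh1cKO cells, 130, 110 and 100 in control day 1 cells, and 96, 91 and 95 in progenitors. These flank sites had log2 ratios between -0.18 and 0.17 by genotype, and each interval included 0. The fifth was the Tcf7l1 site at 106 fragments in control day 1 cells, which has no gene end within 1000 bp.

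Another 69 genes of the pathway, with further ligands, R-spondins, Lgr receptors, planar polarity genes and transcriptional partners, were read in the same way. A gene-end peak was called for 50 of them in Seh1cKO cells (72.5%, against 56.2% of all genes), 56 in control day 1 cells (81.2%, against 63.2%) and 59 in progenitors (85.5%, against 62.4%), and 48 had one in every library, where 54.1% of all genes had. Of the 56, 49 also had one in Seh1cKO cells (87.5%, against 87.1% over all genes). Their median log2 ratio was -0.09 over 48 genes for Seh1cKO over control day 1 cells and 0.51 over 50 genes for control day 1 cells over progenitors, and 0 genes reached 2-fold in either comparison, where 1.56% of all genes were 2-fold higher and 1.87% lower by genotype, and 9.66% higher and 0.204% lower by stage. Relative to the median of all genes, 2 were 2-fold lower by stage, Sostdc1 and Wnt2b, against 1.88% of all genes, and 0 were higher, against 1.03%. Sostdc1, a secreted inhibitor, had 8 fragments in Seh1cKO cells from a peak that lay outside the window, 14 in control day 1 cells and 33 in progenitors, a log2 ratio of -0.88 by stage before centring. The ligand Wnt2b had 6 fragments in Seh1cKO cells, 13 in control day 1 cells and 26 in progenitors, a ratio of -0.64. The lowest by genotype was Ror1, a receptor for Wnt5a, with 19 fragments in Seh1cKO cells, 59 in control day 1 cells and 45 in progenitors (-0.88). The highest by stage was Kremen2, which binds Dkk proteins, with 34, 70 and 45 fragments in Seh1cKO cells, control day 1 cells and progenitors (1.00). Its site (chr17:23739074-23740709) reaches the window but lies outside the gene, whose nearer end is at 23741199. Ends of other genes near it are not given here.

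Wls, which escorts Wnt ligands to the cell surface, had the tallest gene-end site of all genes in each library, with 550 fragments in Seh1cKO cells, 852 in control day 1 cells and 973 in progenitors, or 50.7, 46.7 and 41.6 PPM. That site is 274 bp long and lies past the 3′ end of the gene (chr3:159939406-159939679), and what it has to do with Wls was not tested. At the start of Wls the levels were ordinary, with 19 fragments in Seh1cKO cells, 52 in control day 1 cells and 52 in progenitors (chr3:159839484-159840798). Tcf7l2, the TCF gene with a known stage-specific role in oligodendrocytes, was called in every library, with 23 fragments in Seh1cKO cells, 49 in control day 1 cells and 36 in progenitors. The 7 genes with no gene-end peak in any library, where 31.5% of all genes had none, were Csnk1e, Dkk4, Rspo4, Sost, Tle2, Wnt10b and Wnt3a. All of these except Csnk1e and Tle2 encode secreted proteins.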

How the data were processed

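Each library was 1 sample, grouped by its labels, and 50000 cells were used per library. The tools Bowtie2, SAMtools and MACS2 and the build mm10 are named per the submitters' processing notes. Per the file headers, MACS 2.1.2_dev called peaks in each library separately, with a q cutoff of 0.05, a minimum length of 100 bp and no control library. No source used here says if reads were shifted for the transposase cut. Each deposited table holds a peak's pileup signal at the summit, its fold enrichment as a ratio over local background, and −log10 values of p and q, all of them the authors'.

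Gene positions came from RefSeq for GRCm38.p6, which numbers its main chromosomes as mm10 does. Overlapping peaks (at least 1 bp) of the 3 libraries were merged into sites, and a gene's level is that of its strongest gene-end site, scaled to 1000000 fragments (PPM) by the fragment total of the file header. Positions are 1-based. Ratios have conditional binomial intervals on the pileups, shares have exact Clopper-Pearson intervals, and the interval of a median is an order-statistic interval over genes, which are not replicates. The fragments carry no molecular identifiers, so copies of a molecule cannot be told apart. Since each group has 1 library, a 2-fold difference in PPM was used for description in place of a test. The steps were tested on simulated data. Alternatives were other windows, flanks and overlaps, a stricter q, lists of equal length, fold enrichment, centring on all genes and a fold of 1.5. Values are given in full for genes whose calls differ, that are past 2-fold or lead their role, and for 6 target genes (Axin2, Lef1, Nkd1, Notum, Rnf43, Znrf3). Some sites inside genes, such as those of Lrp6 and Dkk2, were given outside these rules. The Tcf7l1 promoter and other sites of Tcf7l1 were chosen after their values were seen. The members and lists were chosen with earlier results of these data known. Software was Python 3.11.15, numpy 2.4.6, pandas 2.3.3, scipy 1.17.1 and matplotlib 3.10.9.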

Additional observations from a re-analysis of the deposited data

How the results depend on the processing

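Of 82 alternative values over 18 results, 58 stayed within the bounds set for them, 23 moved and 1 changed sign from a value whose interval was clear of 0. With listed starts alone, which 25 of the 40 genes have, 22 genes had a peak in control day 1 cells, against 23 of the same 25 by gene ends and 36 of all 40. Between control day 1 cells and progenitors, centring on all genes took the median gene-end log2 ratio from 0.465 to -0.0187 (-0.246 to 0.225), which is the change of sign, and the authors' fold enrichment took it to 0.0811. The 5 genes 2-fold higher became 0 under either setting and 13 at a fold of 1.5. The 10 sites 2-fold higher became 1 after centring, 1 with fold enrichment and 36 at a fold of 1.5, and the sites lower became 3 after centring and 3 at a fold of 1.5. Between Seh1cKO and control day 1 cells, a fold of 1.5 gave 2 genes higher and 3 lower, and 5 sites higher and 15 lower. Fold enrichment gave 0 sites higher and 2 lower, and a −log10 q of at least 5 left 1 site lower. The share of control day 1 locus peaks also in Seh1cKO cells was 49.6% at that q and 71.8% with lists of equal length, against 38.4%. For progenitor peaks also at day 1 it was 79.1% and 76.7%, and for control day 1 peaks also in progenitors 68.4% and 73.5%. The Seh1cKO library held 59.4% of the control day 1 fragments, so sites of few fragments are the least certain to be missing there. No paired analysis was possible because each group has 1 library and the labels give no replicate numbers.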
